A study of Homo sapiens with 6 samples.

Results

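The GADD45, sestrin and DDIT4 genes are 7 stress-response genes (GADD45A, GADD45B, GADD45G, SESN1, SESN2, SESN3 and DDIT4), chosen by name from the 58735 genes of the deposited table. They were followed in C4-2B MDVR, a human prostate cancer cell line derived from C4-2B by selection for resistance to enzalutamide, an antiandrogen drug. PTUPB inhibits both cyclooxygenase-2 and soluble epoxide hydrolase. Every library came from this cell line after 2 days of treatment, with 1 library per group. The groups were enzalutamide at 20 uM, PTUPB at 10 uM plus enzalutamide, PTUPB at 20 uM plus enzalutamide, PTUPB alone at 10 uM, PTUPB alone at 20 uM, and the DMSO control. The labels give no enzalutamide dose for the combined groups, and an equal dose was assumed there.

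GADD45 proteins are small nuclear and cytoplasmic proteins that bind cell cycle and repair proteins such as PCNA and CDK1, and that activate the stress kinase MAP3K4. Sestrins and DDIT4 restrain mTORC1, the kinase complex that couples nutrients to growth. Sestrins do so through the GATOR complexes that sense amino acids, and DDIT4 does so through the TSC complex. GADD45A and SESN1 are induced by DNA damage, SESN2 and DDIT4 are targets of ATF4, and SESN3 is a FOXO target. DDIT4 is also induced by hypoxia and by glucocorticoids.

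Promoter sequence of 250 bases before the start site was taken from RefSeq on GRCh38.p14 for 6 of the 7 genes. The entries below are those of GADD45B and GADD45G, whose levels were both highest in the same library, and of DDIT4. In that library, 20 uM PTUPB plus enzalutamide, GADD45B and GADD45G stood at 6.13 and 1.75 times the control. The entries are written 5′ to 3′ on the strand of the gene. Capitals mark matches, on either strand, to the E-box CACGTG, to ACGTG (the core of the hypoxia response element, contained in that E-box) or to TGATGNAA (the core of the amino acid response element).
GADD45B, chr19:2475877-2476126, plus strand: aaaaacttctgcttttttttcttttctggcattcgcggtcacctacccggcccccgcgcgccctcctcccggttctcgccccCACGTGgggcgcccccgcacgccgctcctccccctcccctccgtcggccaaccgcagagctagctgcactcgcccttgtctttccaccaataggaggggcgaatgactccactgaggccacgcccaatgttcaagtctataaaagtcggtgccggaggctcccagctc
GADD45G, chr9:89604762-89605011, plus strand: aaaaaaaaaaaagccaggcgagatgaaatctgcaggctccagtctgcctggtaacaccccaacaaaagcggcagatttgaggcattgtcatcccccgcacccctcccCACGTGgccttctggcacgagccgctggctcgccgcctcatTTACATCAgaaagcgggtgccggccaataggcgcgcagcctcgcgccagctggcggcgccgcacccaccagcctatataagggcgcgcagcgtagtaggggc
DDIT4, chr10:72273674-72273923, plus strand: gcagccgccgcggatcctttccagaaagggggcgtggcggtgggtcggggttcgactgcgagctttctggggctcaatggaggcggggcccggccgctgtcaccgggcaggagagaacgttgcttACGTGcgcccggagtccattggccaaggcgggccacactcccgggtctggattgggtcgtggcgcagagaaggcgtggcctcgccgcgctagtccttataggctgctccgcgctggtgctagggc
The E-box lay 168 bases before the start in GADD45B and 143 bases before it in GADD45G, and 6.34% of 35116 promoters of this length held it. GADD45G also held TGATGNAA as its reverse complement, 102 bases before the start, a match found in 3.14% of promoters. DDIT4 held ACGTG 125 bases before the start (18.5% of promoters). Other motifs in the search included TGACGTCA, TGAGTCA and GTAAACA, which had no match in these windows, and CCAAT (32.0% of promoters), which is left in lower case. The entries of SESN1, SESN2 and SESN3 held no match to the E-box, to ACGTG or to TGATGNAA. GADD45A had no entry in the sequence table. These are matches of letters, not sites shown to be bound.

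Levels are FPKM, fragments per kilobase of exon scaled by a factor for each library, which was not its fragment total. As deposited, the median tested gene of each treated library lay at -0.032 to 0.020 on the log2 scale against the control. All 7 genes had a mean of 1 FPKM or more and were tested among 12960 genes that did. By own match to GENCODE 29 on GRCh38, GADD45A (ENSG00000116717) lies on chromosome 1 at 67685061 to 67688338, SESN2 (ENSG00000130766) on chromosome 1 at 28259527 to 28282491, SESN3 (ENSG00000149212) on chromosome 11 at 95165513 to 95232541 and DDIT4 (ENSG00000168209) on chromosome 10 at 72273920 to 72276036. GADD45B (ENSG00000099860) lies on chromosome 19 at 2476122 to 2478259, GADD45G (ENSG00000130222) on chromosome 9 at 89605013 to 89606555 and SESN1 (ENSG00000080546) on chromosome 6 at 108986437 to 109094819. Values cover all exons of a gene. Exons of antisense genes overlap SESN1, SESN3 and DDIT4. Those genes had at most 22 fragments (ENSG00000271730), 30 fragments (LNCRNA-IUR) and 0 fragments (DDIT4-AS1) in any library, against at least 755, 1055 and 2054 for the members. Depth was 20156523 to 29450436 fragments per library. Of 9 luminal prostate markers, all were at 1 FPKM or more in the libraries without PTUPB; their summed level was 301 and 288 FPKM at 20 uM PTUPB with and without enzalutamide, against 699 and 903 FPKM without PTUPB. Of 12 basal, stromal, blood and endothelial markers, COL1A1 alone reached 1 FPKM. The part of the lower luminal level in the results below was not tested. In such bulk samples a larger share of cells expressing a gene and more RNA per cell cannot be told apart.

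At 20 uM PTUPB, GADD45A, SESN2 and SESN1 rose and SESN3 fell. In the additive model over all 6 libraries (limma, adjusted p of 0.05 or less over 12960 genes), 3 of the 7 members rose and 1 fell against 0 uM, where 15.9% of all tested genes rose and 18.2% fell. The remaining members, GADD45B, GADD45G and DDIT4, did not pass. The median effect of the members was 1.06 on the log2 scale, against 0.00 over all tested genes. With 1 library per group there are no replicates. These p-values set each effect against a spread taken from departures from additivity of the agents, and not from replicates. That spread has 2 residual degrees of freedom per gene, and limma draws it towards a trend fitted over all tested genes.

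**Figure D1:**
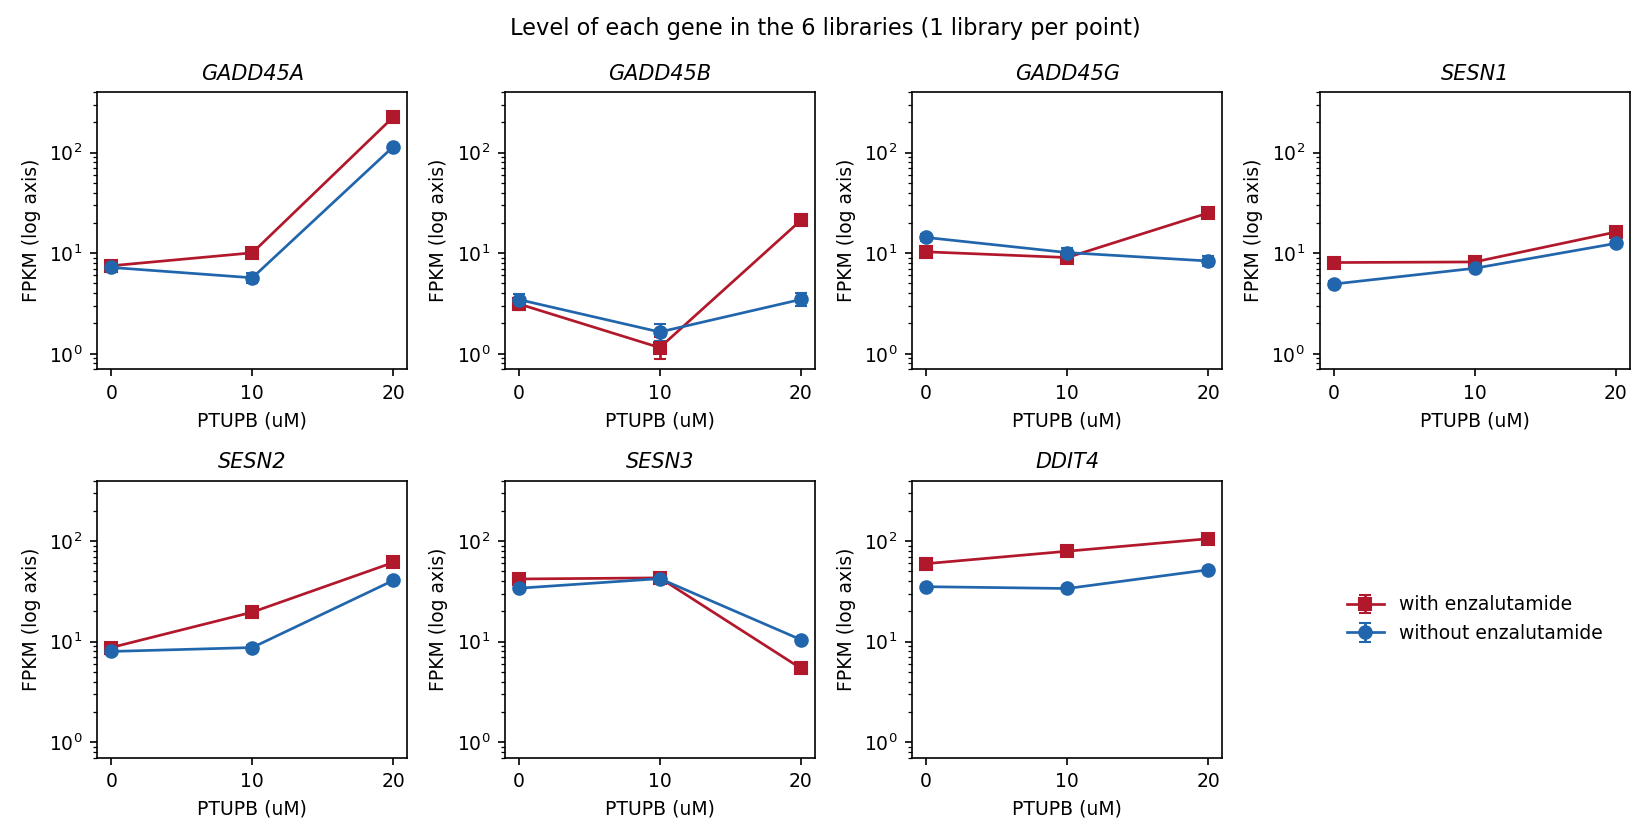
Level of each gene in FPKM (log axis) against PTUPB dose in uM, with enzalutamide (red squares) and without it (blue circles); each point is 1 library and bars are 95% Poisson intervals on fragments, which cover counting error only. GADD45A stood at 226 and 115 FPKM at 20 uM with and without enzalutamide and at 5.69 to 10.1 FPKM in the other 4 libraries, while SESN3 ran the opposite way.

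GADD45A, the member of its family first known from DNA damage, made the largest change of the 7. With enzalutamide it stood at 7.49, 10.1 and 226 FPKM at 0, 10 and 20 uM PTUPB. Without enzalutamide it stood at 7.21, 5.69 and 115 FPKM at the same doses. Both 20 uM libraries lay far above the other 4, and those 4 lay within 5.69 to 10.1 FPKM. The ratio of the 20 uM library to the library without PTUPB was 30.1 with enzalutamide and 15.9 without it. The additive effect was 4.28 on the log2 scale (SE 0.26, adjusted p 0.0023), the 7th largest rise of 12960 genes, and 4.23 against 10 uM (adjusted p 0.0025), the 3rd largest. In the ranking of levels, GADD45A lay above 98.9% and 98.2% of tested genes at 20 uM with and without enzalutamide, and above 57.9% and 56.9% without PTUPB.

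GADD45B, a member induced by NF-kB and by TGF-beta signalling, was high in a single library. With enzalutamide its level was 3.13, 1.15 and 21.2 FPKM at 0, 10 and 20 uM PTUPB. Without enzalutamide it was 3.46, 1.65 and 3.46 FPKM. The library with 20 uM PTUPB plus enzalutamide (831 fragments) stood apart from the other 5, which held 65 to 221 fragments. Both 10 uM libraries were the lowest: the ratio to the library at 0 uM was 0.37 with enzalutamide (95% counting interval 0.27 to 0.49) and 0.48 without it (0.37 to 0.60). The additive effect of 20 uM over 0 uM was 1.21 (SE 0.63, adjusted p 0.19 by limma) and did not pass. It was -0.045 without the combined 20 uM library (adjusted p 0.88 by limma), and it passed without the library of 20 uM PTUPB alone (2.47, adjusted p 0.0078 by limma) and by limma-voom on recovered fragments (1.47, adjusted p 0.041).

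GADD45G, which like its relatives activates MAP3K4 and the p38 and JNK kinases, was the most abundant family member in the control. With enzalutamide it stood at 10.3, 9.05 and 25.1 FPKM at 0, 10 and 20 uM PTUPB. Without enzalutamide it stood at 14.3, 10.1 and 8.36 FPKM, lower at each higher dose. The ratio of 20 uM to 0 uM was 2.44 with enzalutamide (95% counting interval 2.14 to 2.77) and 0.58 without it (0.50 to 0.68), so the differences lay in opposite directions. The additive effect was 0.25 (SE 0.46, adjusted p 0.70 by limma) and did not pass. It was -0.64 without the combined 20 uM library and 1.13 without the library of 20 uM PTUPB alone (adjusted p 0.056 and 0.014 by limma).

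The make-up of the GADD45 family differed between doses. The summed level of the 3 genes was 20.9, 20.3 and 272 FPKM at 0, 10 and 20 uM PTUPB with enzalutamide, and 25.0, 17.5 and 126 FPKM without it. GADD45A made up 83.0% and 90.6% of the sum at 20 uM with and without enzalutamide, against 35.8% and 28.9% at 0 uM. GADD45G made up 9.23% and 6.61% of it at 20 uM, against 49.2% and 57.3% at 0 uM. FPKM is a level per length, so these shares compare genes.

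SESN2, the sestrin that binds leucine and holds back GATOR2, rose at 20 uM. With enzalutamide it stood at 8.75, 19.7 and 61.3 FPKM at 0, 10 and 20 uM PTUPB. Without enzalutamide it stood at 7.99, 8.74 and 40.6 FPKM. The 20 uM libraries were the highest of each series, and the combined 10 uM library lay between them and the other 3. The additive effect of 20 uM was 2.44 over 0 uM (SE 0.26, adjusted p 0.0041 by limma) and 1.85 over 10 uM (adjusted p 0.0083). The second was lost without the library of 10 uM PTUPB alone (1.48, adjusted p 0.053 by limma). At 10 uM the ratio to the library without PTUPB was 2.25 with enzalutamide (95% counting interval 2.07 to 2.44) and 1.09 without it (0.99 to 1.20).

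SESN1, a sestrin induced by DNA damage, rose less. With enzalutamide it stood at 8.07, 8.18 and 16.2 FPKM at 0, 10 and 20 uM PTUPB. Without enzalutamide it stood at 4.93, 7.08 and 12.5 FPKM. The 20 uM libraries were again the highest, and the control was the lowest of the 6. The additive effect was 1.06 (SE 0.18, adjusted p 0.011 by limma), and 0.82 over 10 uM (adjusted p 0.022). The call over 0 uM was lost without the control library (0.88, adjusted p 0.11), without the enzalutamide library (1.23, adjusted p 0.084) and with no filter on low values (adjusted p 0.053), all by limma with fewer residual degrees of freedom or more genes tested. The call over 10 uM was lost without the control (adjusted p 0.055), the enzalutamide library (0.054), 10 uM PTUPB alone (0.098) or its combination (0.21).

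SESN3, the sestrin controlled by FOXO factors, was the member that fell. With enzalutamide it stood at 42.0, 43.1 and 5.44 FPKM at 0, 10 and 20 uM PTUPB. Without enzalutamide it stood at 34.0, 42.3 and 10.5 FPKM. The 4 libraries at 0 and 10 uM lay within 34.0 to 43.1 FPKM, and both 20 uM libraries lay below all of them. The library at 20 uM was 7.72-fold lower than that at 0 uM with enzalutamide and 3.24-fold lower without it. The additive effect was -2.17 over 0 uM (SE 0.30, adjusted p 0.0066 by limma) and -2.35 over 10 uM (adjusted p 0.0066). Without the enzalutamide library the first of these was -1.82 (adjusted p 0.073 by limma), and with no filter on low values it had an adjusted p of 0.051.

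The 3 sestrins therefore differed in direction, and SESN2 took the place of SESN3 as the most abundant. SESN3 made up 6.55% and 16.5% of the summed sestrin level at 20 uM with and without enzalutamide, against 71.4% and 72.4% at 0 uM. SESN2 made up 73.9% and 63.9% of it at 20 uM, against 14.9% and 17.0% at 0 uM. The sum itself was 83.0 and 63.6 FPKM at 20 uM with and without enzalutamide, against 58.8 and 46.9 FPKM at 0 uM.

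**Figure D2:**
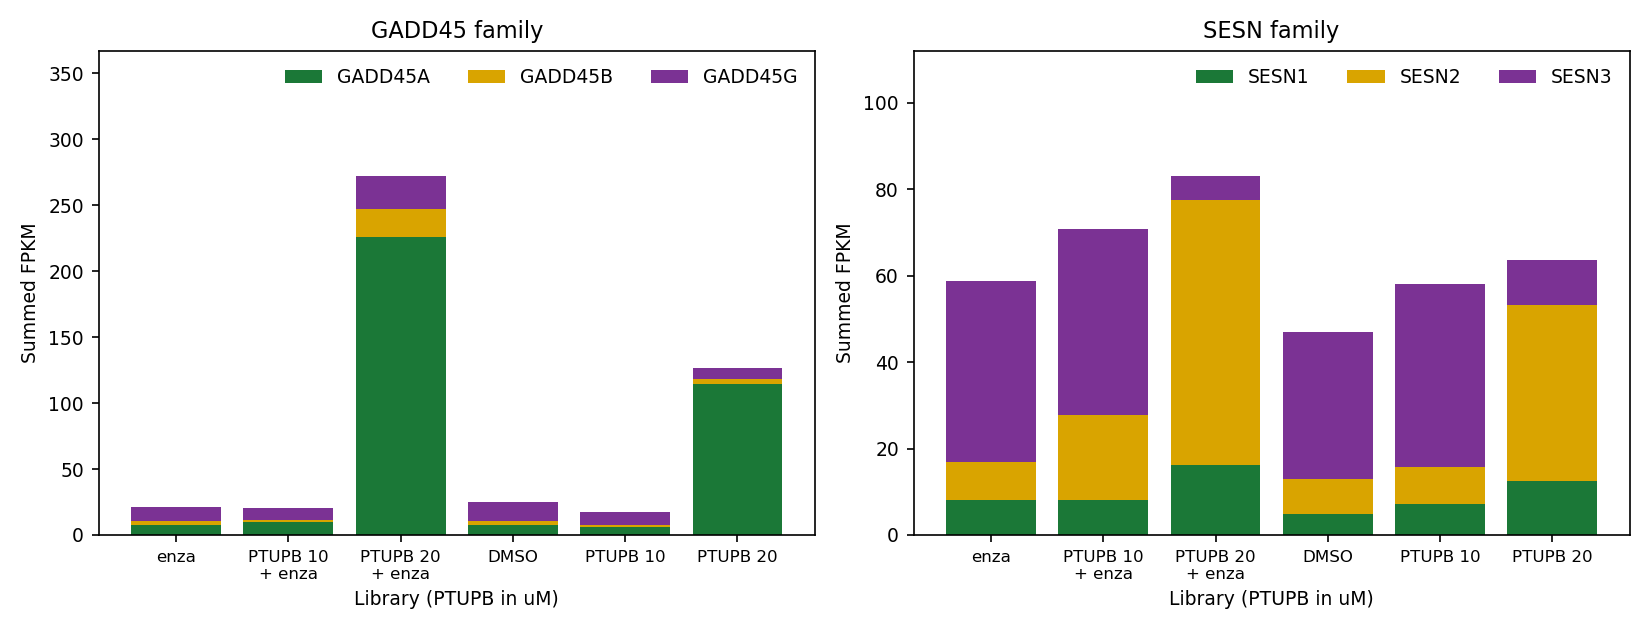
Summed FPKM of the GADD45 family (left) and of the sestrins (right) in each library, stacked by gene; libraries with enzalutamide (enza) are the left 3 bars of each panel and PTUPB is in uM. GADD45A fills 83.0% and 90.6% of the GADD45 bars at 20 uM, and SESN2 fills 73.9% and 63.9% of the sestrin bars there.

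DDIT4, also called REDD1, which releases the TSC complex to restrain mTORC1, did not pass for either agent among the 12960 genes as deposited. With enzalutamide it stood at 59.6, 79.3 and 105 FPKM at 0, 10 and 20 uM PTUPB. Without enzalutamide it stood at 35.2, 33.8 and 51.8 FPKM. In FPKM every library with enzalutamide was higher than every library without it. In TPM the enzalutamide library stood at 168, below the 194 of the library with 20 uM PTUPB alone. The ratio of enzalutamide to none was 1.69 at 0 uM (95% counting interval 1.61 to 1.79), 2.35 at 10 uM (2.23 to 2.48) and 2.04 at 20 uM (1.94 to 2.14). The additive effect of enzalutamide was 0.99 (SE 0.17), the 72nd largest rise of 12960 genes, and had an unadjusted p of 0.0013 and an adjusted p of 0.81 by limma. The effect of 20 uM PTUPB was 0.68 (SE 0.21, adjusted p 0.051), just outside the threshold. In TPM the effect of enzalutamide was 0.74 and that of 20 uM PTUPB 0.73, and the second passed (adjusted p 0.040). It also passed by limma-voom (0.63, adjusted p 0.037). As deposited, the effect of 0.68 passed by limma when only genes with a mean of 5 FPKM or more were tested (adjusted p 0.046). By limma the effect did not pass with no filter on low values (adjusted p 0.11) or scaled by total fragments (0.62, adjusted p 0.065). With a library left out it ran from 0.50 (without the enzalutamide library) to 0.86 (without the control) and did not pass.

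No member passed for enzalutamide over none or for 10 uM PTUPB over 0 uM. By limma no gene at all passed either contrast (0.0% of 12960 in each direction); at an unadjusted p under 0.05 there were 4 members for enzalutamide and 0 for 10 uM, among 626 and 480 of all tested genes. Limma-voom on recovered fragments also called 0 members in both, and 19 and 2 genes in all. The 4 members were DDIT4, GADD45A (0.58, SE 0.21), SESN2 (0.59, SE 0.21) and SESN1 (0.38, SE 0.15), with an adjusted p of 0.92 for each of the last 3. In the paired libraries at 0 uM, enzalutamide against control, no member differed by log2 1 or more, where 1.31% of tested genes were higher and 1.37% lower. In TPM, which rescales each library to a fixed sum, the median gene of this pair lay at -0.41. On that scale SESN1 and DDIT4 stayed higher with enzalutamide (0.27 and 0.33), whereas GADD45A, SESN2 and SESN3, at 0.05, 0.12 and 0.30 as deposited, changed sign to -0.36, -0.29 and -0.12. Scaled by total fragments, GADD45A and SESN2 changed sign too (-0.12 and -0.053), and SESN3 did not (0.11).

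**Figure D3:**
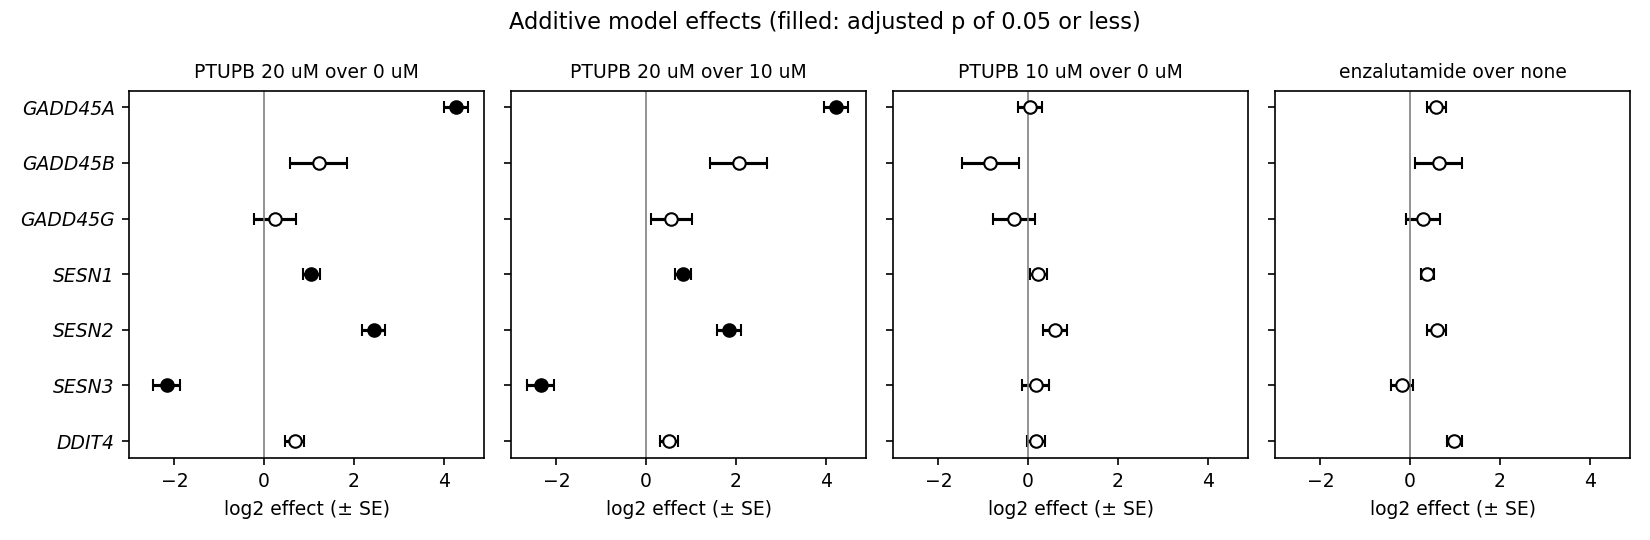
Log2 effect of each gene in the additive model with its SE, for PTUPB at 20 uM over 0 uM and over 10 uM, PTUPB at 10 uM over 0 uM, and enzalutamide over none; filled points have a limma adjusted p of 0.05 or less. GADD45A, SESN1, SESN2 and SESN3 are filled in both panels of 20 uM PTUPB, and no point is filled in the other 2 panels.

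Against 10 uM rather than 0 uM, the same 3 members rose at 20 uM and SESN3 fell (16.5% and 16.9% of all tested genes rose and fell). GADD45B had an effect of 2.06 (SE 0.63, adjusted p 0.054 by limma). It passed in this contrast after rescaling to TPM (2.55, adjusted p 0.0031) and by limma-voom (2.68, adjusted p 0.0041). It was 0.80 without the combined 20 uM library (adjusted p 0.045 by limma), 1.36 without the combined 10 uM library and 3.32 without 20 uM PTUPB alone (adjusted p 0.0079). GADD45G stood at 0.56 (adjusted p 0.38), at -0.32 without the combined 20 uM library (adjusted p 0.22) and at 1.45 without 20 uM PTUPB alone (adjusted p 0.0099 by limma), and DDIT4 at 0.51 (adjusted p 0.11).

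Enzalutamide added to 20 uM PTUPB left GADD45A, GADD45B, GADD45G, SESN1, SESN2 and DDIT4 higher and SESN3 lower than 20 uM PTUPB alone. These differences come from 1 library a side. By log2 1 or more, 3 members were higher (GADD45B 2.31, GADD45G 1.48 and DDIT4 1.01), where 3.83% of tested genes were higher and 2.90% lower. In TPM the median gene of this pair lay at -0.24. GADD45B and GADD45G then stood at 2.21 and 1.24, DDIT4 at 0.70 and SESN3 at -1.21. GADD45A, SESN2 and SESN1 stood at 0.66, 0.27 and 0.055. By log2 1 or more in TPM, 417 of 12960 tested genes were higher and 1440 lower. Scaled by total fragments, GADD45B, GADD45G, DDIT4 and SESN3 stood at 2.12, 1.28, 0.80 and -1.02. At 10 uM PTUPB, DDIT4 (1.21) and SESN2 (1.08) were higher with enzalutamide by that margin, where 1.41% of tested genes were higher and 2.01% lower, and no member was lower by it.

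The combined libraries were also set against the sum of the single-agent log2 differences. At 20 uM PTUPB plus enzalutamide, GADD45B was observed at 21.2 FPKM where the sum gives 3.14 FPKM, and GADD45G at 25.1 FPKM where it gives 5.91 FPKM. These departures, 2.42 and 1.92 on the log2 scale, were matched or exceeded in size by 1.08% and 2.05% of tested genes. GADD45A was observed at 226 against 119 FPKM and SESN3 at 5.44 against 13.1 FPKM, departures that 14.0% and 8.60% of genes matched. SESN2 departed most at 10 uM (19.7 observed against 9.56 FPKM; 4.55% of genes). The term for enzalutamide by PTUPB dose, with 1 residual degree of freedom, called no member and no gene by limma (0.0% of 12960 in each direction). Its estimate was 2.42 for GADD45B (SE 0.76, adjusted p 0.48) and 1.92 for GADD45G (SE 0.46, adjusted p 0.45). These estimates are the departures at 20 uM given above, because the 10 uM libraries enter only the error of this term. At an unadjusted p under 0.05 there were 4 members and 1219 genes in all. After rescaling to TPM both GADD45B (2.73, adjusted p 0.014) and GADD45G (2.12, adjusted p 0.0026) passed, among 191 genes rising and 110 falling.

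**Figure D4:**
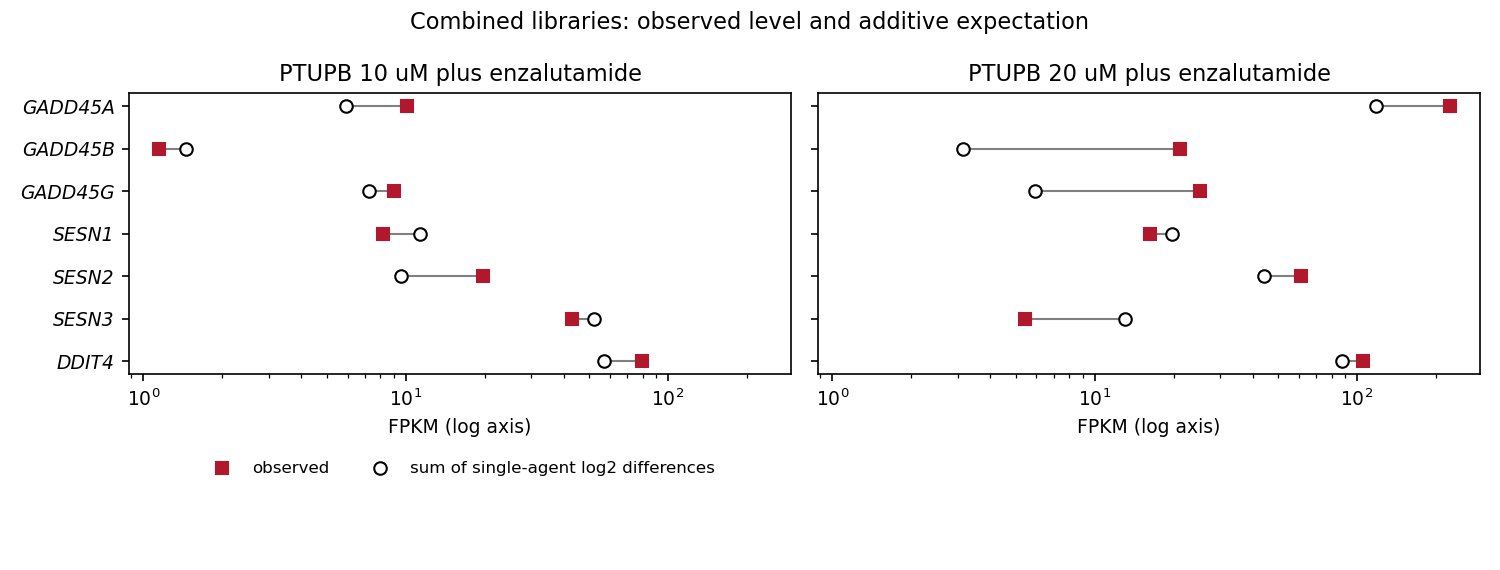
Observed level (red squares) and level given by the sum of single-agent log2 differences (open circles) in FPKM (log axis) for PTUPB at 10 uM plus enzalutamide (left) and at 20 uM plus enzalutamide (right), 1 library each. GADD45B and GADD45G lie furthest above the sum at 20 uM, at 21.2 against 3.14 and 25.1 against 5.91 FPKM.

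Genes that work with the members were followed as 5 lists written from general knowledge. Their counts for 20 uM PTUPB over 0 uM stand beside 15.9% of all tested genes rising and 18.2% falling, and nothing particular to a list is read from them. For 20 uM PTUPB over 0 uM, 1 of 14 GADD45 binding partners and kinases rose, 4 fell and 9 did not pass (median 0.02, against 0.00 over all tested genes). CDKN1A, the CDK inhibitor p21 that binds PCNA as GADD45 does, rose by 3.46 on the log2 scale (SE 0.26, adjusted p 0.0025 by limma), with 469 and 427 FPKM at 20 uM with and without enzalutamide against 48.4 and 32.8 FPKM at 0 uM. The mitotic kinase CDK1 (-2.97), its cyclin CCNB1 (-2.10) and the sliding clamp PCNA (-1.52) fell. MAP3K4, the kinase that GADD45 proteins activate, did not pass (-0.62, adjusted p 0.11).

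Of 19 genes of the mTORC1 core and its activators, 6 rose, 1 fell and 12 did not pass (median 0.12). The largest rises were in the Rag GTPases RRAGC (1.77, adjusted p 0.0035) and RRAGD (1.51, adjusted p 0.0052), which hold mTORC1 at the lysosome, and in the GATOR2 subunit SEC13 (1.48, adjusted p 0.011). SEC13 also coats vesicles leaving the endoplasmic reticulum. SEH1L, another GATOR2 subunit, fell (-0.67, adjusted p 0.026). Of 23 tested mTORC1 brakes and nutrient sensors (26 listed), 4 rose, 3 fell and 16 did not pass (median 0.18), against 15.9% rising and 18.2% falling over all genes. The rises were led by KICS2 (0.79, adjusted p 0.026), which ties GATOR1 to the lysosome, and by the AMPK subunits PRKAG1 (0.74, adjusted p 0.037) and PRKAB1 (0.73, adjusted p 0.020). The AMPK subunit PRKAA1 fell (-0.77, adjusted p 0.021). TXNIP, which binds thioredoxin and stabilises DDIT4 in a complex, fell (-1.62, SE 0.43, adjusted p 0.036), with 6.50 and 30.9 FPKM at 20 uM with and without enzalutamide against 34.5 and 62.6 FPKM at 0 uM. DEPTOR, an mTOR inhibitor, fell by 1.27 on the log2 scale (SE 0.17, adjusted p 0.0065). DDIT4L, the paralog of DDIT4, was below the level filter, with 0.018 and 0.099 FPKM at 20 uM with and without enzalutamide against 0.934 and 0.726 FPKM at 0 uM.

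Among 11 sestrin redox partners, 4 rose, 2 fell and 5 did not pass (median 0.26). Beside this count and the next, 15.9% of all tested genes rose and 18.2% fell. The autophagy receptor SQSTM1, which sestrins bind, rose by 3.05 (adjusted p 0.0029), and SRXN1, which repairs oxidised peroxiredoxins, by 2.12 (adjusted p 0.0029). The peroxiredoxins PRDX1 (-1.94) and PRDX3 (-1.06) fell. Among 14 tested transcription factors known to act on members (18 listed), 8 rose, 3 fell and 3 did not pass (median 0.86). ATF3 (5.48) and DDIT3 (4.29), stress factors downstream of ATF4, had the largest rises, and MYC (-4.66) had the largest fall. ATF4 itself did not pass (0.39, adjusted p 0.22); it was named after its values were seen, as were MAP3K4 and DDIT4L.

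The genes with the most similar profile were found as the smallest root mean square difference of centred log2 values over the 6 libraries, among 7166 other genes with a mean of 5 FPKM or more. For GADD45A these were HSPA5 (0.26), UPP1 (0.28) and GEM (0.30). For SESN2 they were HSD17B14 (0.15), TRIB3 (0.18) and the pseudogene ASNSP1 (0.24), whose reads may be shared with ASNS. SESN1 was nearest to CD63 (0.05), OS9 (0.05) and CTBS (0.07), and SESN3 to CELSR2 (0.06), MARVELD1 (0.06) and NPTN (0.09). DDIT4 was nearest to ELF3 (0.16), ASNS (0.19) and CHCHD10 (0.23). GADD45G was nearest to DNAJB1 (0.11), SF3A2 (0.12) and PCBP1 (0.13). GADD45B had the least close neighbours of the 7, EAF2 (0.37), PER1 (0.38) and CDKN2AIP (0.41). Of these, PER1 stood at 23.3 FPKM in the combined 20 uM library and at 2.76 to 4.49 FPKM in the other 5.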

How the data were processed

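RNA sequencing values of 6 libraries were used as the authors deposited them, in FPKM. The submitters' processing notes name HISAT and Cufflinks, without versions; the genome build and whether reads were counted by strand are not given in the sources used here. Identifiers (58735) were matched to GENCODE 29. Each FPKM times exon length fell on whole multiples of 1 step per library (100% of values within 0.05 fragments), which gave fragments per gene. The log2 scale carries a pseudocount of 1 FPKM, and genes under a mean of 1 FPKM were filtered out, so fold changes of low genes are understated. PTUPB as 3 levels plus enzalutamide was fitted in R 4.3.3 by limma 3.58.1, trend on mean level included; p-values are two-sided and adjusted by Benjamini-Hochberg over 12960 genes at 0.05. The dose term was fitted in a second model. Alternatives were another pseudocount (0.1), other filters, TPM, total fragments, limma-voom, no trend and each library left out. The fit was tested on simulated data in which the agents acted additively on a small part of the genes. That setting does not cover departures from additivity. Intervals cover counting error only. All members were described; up to 3 rising and 3 falling genes with the largest effects could be named from each list, and 3 nearest profiles for each member; some genes that this rule names are not reported here. Members and lists were chosen with earlier results of these data known. Python 3.11.15 was used for other steps.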

Additional observations from a re-analysis of the deposited data

Results flagged for a closer look

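GADD45G at 20 uM PTUPB was singled out because its difference from the library without PTUPB lay in opposite directions, at 1.21 with enzalutamide and -0.71 without it on the log2 scale, each from 1 library a side. The term for enzalutamide by PTUPB dose, which tests this difference over all 6 libraries, gave 1.92 with an adjusted p of 0.45 by limma (0.0026 to 0.71 over the alternatives).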

How the results depend on the processing

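Each group holds 1 library, so no pairing by replicate was possible. The additive model itself compares enzalutamide within each PTUPB dose, and PTUPB doses within each enzalutamide state. For 20 uM over 0 uM, limma-voom on recovered fragments called 5 rising members in place of 3 and no filter on low values called 0 falling members in place of 1; with a library left out the counts ran 2 to 5 rising and 0 to 1 falling. Over 10 uM, no filter gave 1 rising and 0 falling member, and left-out libraries 1 to 5 rising. For enzalutamide by PTUPB dose, TPM gave 2 rising members in place of 0. With no filter the related lists at 20 uM over 0 uM had 2 rising and 0 falling genes of the mTORC1 core, 0 rising and 1 falling among brakes and sensors, 1 falling GADD45 partner, 1 falling redox partner and 3 rising transcription factors. TPM gave 0 falling core genes and 2 rising GADD45 partners, and limma-voom 3 and 2. Over all genes, calls for 20 uM over 0 uM numbered 2064 rising and 2362 falling, 544 and 657 with no filter, where 31321 genes were tested, 366 and 616 without the control and 115 and 209 without the enzalutamide library. Over 10 uM the counts were 2132 and 2193, or 425 and 443 with no filter, 351 and 487 without 10 uM PTUPB and 430 and 709 without its combination.

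No effect passed in a fit where its sign was turned. Without the library of 20 uM PTUPB alone, GADD45B and GADD45G passed over 0 uM and over 10 uM at the upper ends of the ranges below. GADD45G for 20 uM was -0.71 in the interaction model, whose 20 uM term is the difference of 20 uM PTUPB alone from the control. GADD45A for 10 uM was -0.071 after TPM. With a library left out, for 20 uM over 0 uM GADD45B ran -0.045 to 2.47 and GADD45G -0.64 to 1.13, and over 10 uM GADD45B ran 0.80 to 3.32 and GADD45G -0.32 to 1.45. For 10 uM over 0 uM GADD45A ran -0.36 to 0.44, GADD45G -0.87 to 0.24, SESN3 -0.18 to 0.52 and DDIT4 -0.0092 to 0.36. For enzalutamide GADD45B ran -0.20 to 1.10, GADD45G -0.29 to 0.67 and SESN3 -0.40 to 0.16. The cause of these changes was not tested. GADD45A rose for 20 uM over 0 uM in every alternative (3.82 to 4.68), as did SESN2 (2.09 to 2.80). Of these, 3.82 came from the interaction model and so repeats the pair without enzalutamide. No filter also ended the calls over 10 uM of SESN1, SESN2 and SESN3 (adjusted p 0.077, 0.055 and 0.051 by limma). Fits that leave out a library have 1 residual degree of freedom.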
